A study of Mus musculus with 2 samples.

Results

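Genes of the Ly6, Lypd, Pate, Slurp and Cd59 families, together with Plaur and Spaca4, were taken from a mouse RNA sequencing table by symbol. Only protein-coding genes were taken, by a symbol rule that used none of their values but was set with earlier results of these data known. This gave 35 genes of the 54532 in the table, or of its 22046 protein-coding genes. Levels were set side by side in 1 library from Trappc9 knockout mice (KO) and 1 library from wild-type mice (WT), aged 3 to 4 weeks, with strain and sex not given in the labels. Trappc9 encodes a subunit of the TRAPP vesicle-tethering complexes, and the samples are labelled as adipose. Per the design text, abdominal fat pads of 3 KO and 3 WT mice were digested with collagenase, and the pelleted cells went into TRIzol. The titles speak of stem cells and the extraction label of frozen pads, and the labels do not say whether the mice of a genotype were pooled.

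Proteins of this superfamily fold into 3 finger-like loops held together by disulfide bonds, a shape shared with snake venom neurotoxins. Many sit on the outer face of the cell membrane through a glycosylphosphatidylinositol (GPI) anchor, as Ly6a, Cd59a and the urokinase receptor Plaur do, while the SLURP and PATE proteins are secreted. In the male tract several coat sperm or act on them, in blood and bone marrow the Ly6 antigens mark cell types, and in nerve and skin some bind nicotinic acetylcholine receptors.

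Values are FPKM, fragments per kilobase of gene length scaled to library size, so that levels of different genes can be compared. With 1 library per genotype there was no replicate check and no test. Ratios are KO over WT with an exact 95% Clopper-Pearson interval from the fragments behind each value, which covers counting error only and not the spread between mice. Depth was 14783728 fragments in the KO library and 13705193 in the WT library. Trappc9 itself stood at 12.6 FPKM in the KO library and 9.94 FPKM in the WT library, so the gene-level value did not show the deletion, and directions below are those of the labels. Adipocyte markers were low in both libraries, with a sum over 6 genes of 7.56 FPKM in the KO library and 12.4 FPKM in the WT library. Epididymal epithelium markers, by contrast, summed over 10 genes to 26796 FPKM in the KO library and 19418 FPKM in the WT library.

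A few family members carried most of the signal. Summed over the 35 genes, the level was 2830 FPKM in the KO library and 1370 FPKM in the WT library, a ratio of 2.07. The 4 highest members held 90.8% of this sum in the KO library and 85.3% in the WT library, and 11 and 10 members in these libraries stood above 10 FPKM. At the other end, 12 members had a mean under 1 FPKM, with at most 26 fragments in the KO library and 20 in the WT library. The other 23 passed this level and are the members with a call. Of these, Pate4 and Ly6d passed through the KO library alone and Spaca4 and Ly6h through the WT library alone, so counts over the 23 are a description. In bulk RNA, fewer cells of a type and less RNA per cell cannot be told apart.

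**Figure D1:**
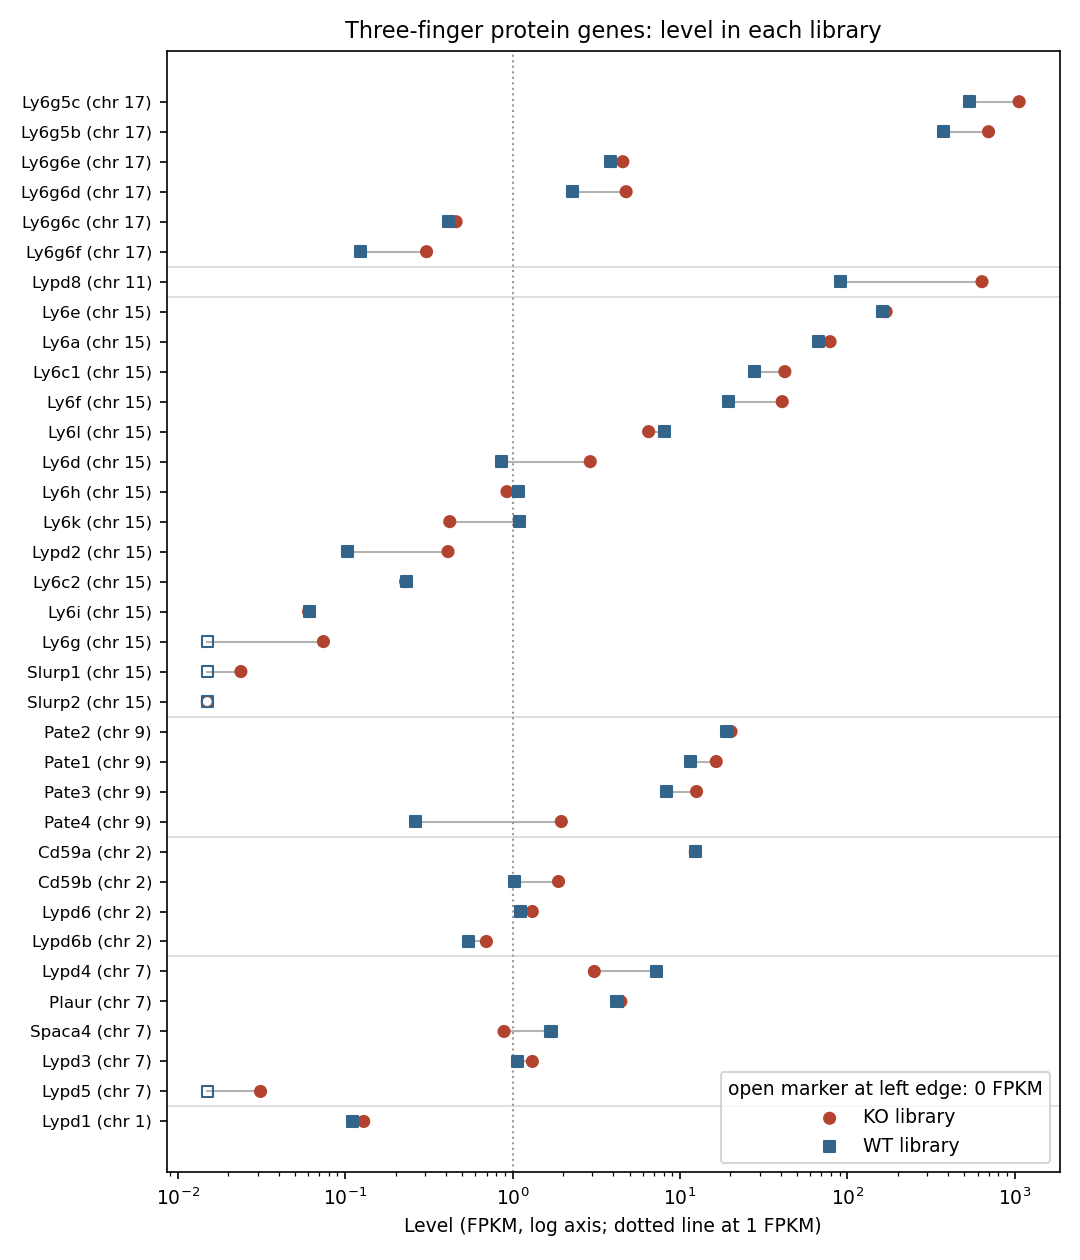
Level of each of the 35 members in FPKM on a log axis, with KO library values as circles and WT library values as squares, grouped by chromosome; open markers at the left edge stand for 0 FPKM. Ly6g5c (1063 FPKM in the KO library and 540 FPKM in the WT library) tops the plot, and the widest gap at a high level is that of Lypd8 (638 and 91.2 FPKM).

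Of the 23 members, 4 stood 2-fold or more above WT in the KO library on the log2(FPKM + 1) scale, against 0.948% of all 13084 protein-coding genes averaging 1 FPKM or more, and 1 was 2-fold or more lower, against 0.29% of all. Rescaling to TPM gives both libraries the same sum. The split was then 2 higher, against 0.741% of all genes, and 1 lower, against 0.642% of all. Beyond counting error, meaning that the interval excluded a ratio of 1, 13 of the 23 were higher in the KO library, against 24.6% of all genes, and 1 was lower, against 17.6% of all. After rescaling to TPM these were 10 of 23 higher, against 7.88% of all genes, and 2 lower, against 48.4% of all. The median log2 ratio was 0.22 over the 23 members and 0.02 over all genes, and 0.05 and -0.15 after rescaling to TPM, a scaling that shifts the median of all genes by -0.17. The members were spread from a log2 ratio of -1.01 to 2.79, with Lypd4 at the low end and Lypd8 at the high end.

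**Figure D2:**
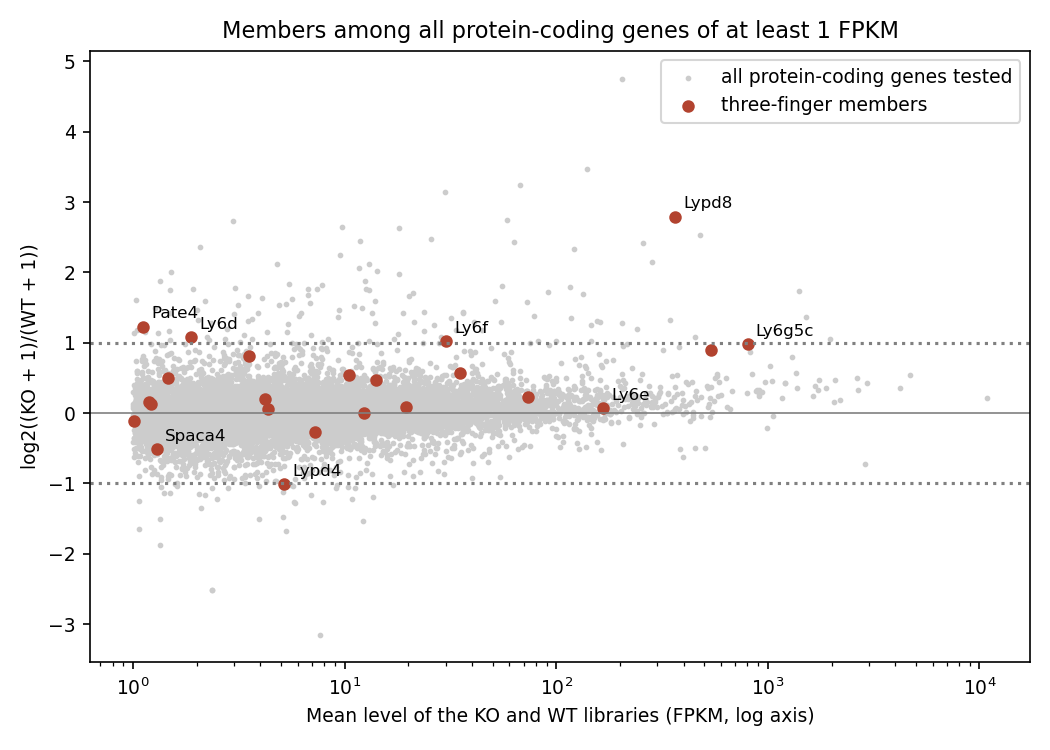
The log2((KO + 1)/(WT + 1)) difference of all 13084 protein-coding genes averaging 1 FPKM or more (grey) and of the 23 members among them (red), against the mean level of both libraries on a log axis; dotted lines mark 2-fold. Lypd8 stands apart at 2.79 and Lypd4 lies at -1.01, while most members fall within the grey band.

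Upstream sequences are shown for the 3 highest members in the KO library and for 9230113P08Rik, a PATE gene under another symbol that had the highest ratio among such relatives. Each is the 150 bases before the RefSeq start (GRCm38.p6), 5′ to 3′ on the gene's strand: chr17:35108144-35108293 (plus strand) for Ly6g5c, chr17:35115510-35115659 (minus strand) for Ly6g5b, chr11:58378882-58379031 (plus strand) for Lypd8 and chr9:35908273-35908422 (plus strand) for 9230113P08Rik. Capitals mark matches to AGAACA, the core of an androgen receptor half-site, or AGGAAG, a core bound by ETS factors of the PEA3 group, on either strand.
Ly6g5c: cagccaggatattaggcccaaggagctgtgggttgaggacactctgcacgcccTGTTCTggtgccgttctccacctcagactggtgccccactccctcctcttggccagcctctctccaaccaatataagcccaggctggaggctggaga
Ly6g5b: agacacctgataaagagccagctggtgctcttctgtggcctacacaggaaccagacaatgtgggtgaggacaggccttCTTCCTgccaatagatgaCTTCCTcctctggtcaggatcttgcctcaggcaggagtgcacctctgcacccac
Lypd8: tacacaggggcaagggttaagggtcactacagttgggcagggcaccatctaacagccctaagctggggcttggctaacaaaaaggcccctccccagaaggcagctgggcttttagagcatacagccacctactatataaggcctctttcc
9230113P08Rik: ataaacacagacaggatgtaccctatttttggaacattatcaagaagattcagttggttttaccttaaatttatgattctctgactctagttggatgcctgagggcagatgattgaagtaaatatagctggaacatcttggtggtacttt
Of the 7 family promoters of genes with at least 100 FPKM in the KO library (Ly6e had no entry in the RefSeq table), AGAACA was found for Ly6g5c, Pate6 and Pate10, and AGGAAG for Ly6g5b, Pate5 and Pate10. The letters TATAAA were in 0 of the 7. Over all 32851 promoters, windows of this length held AGAACA in 9.62%, AGGAAG in 19.7% and TATAAA in 7.57%. Because the 7 were chosen by their level in the KO library, and Lypd8, Pate10 and Pate13 were under 100 FPKM in the WT library, nothing is read from these shares, and a match describes letters only.

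The most abundant members were Ly6g5c and Ly6g5b, 2 genes of the class III region of the major histocompatibility complex on chromosome 17. Ly6g5c (ENSMUSG00000034482, 35108279 to 35111991, mm10) was at 1063 FPKM in the KO library and 540 FPKM in the WT library, from 7741 and 3890 fragments, a ratio of 1.97 (1.90 to 2.05). Ly6g5b (ENSMUSG00000043807, 35113948 to 35115428), on the opposite strand and 1956 bases away, was at 698 FPKM in the KO library and 375 FPKM in the WT library, a ratio of 1.86 (1.80 to 1.92). The pair kept close to the same proportion, with Ly6g5c at 1.52 times Ly6g5b in the KO library and 1.44 times in the WT library. By level, Ly6g5c ranked 29 among protein-coding genes in the KO library and 46 in the WT library.

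Other genes within the span of the family members of this region were far lower. Ly6g6d was at 4.77 FPKM in the KO library and 2.29 FPKM in the WT library, a ratio of 2.08 (1.40 to 3.15), and Ly6g6e was at 4.56 and 3.83 FPKM in these libraries, with an interval that includes 1. The exons of Ly6g6d and Ly6g6e overlap on opposite strands over 229 bases in GENCODE M21, and the labels do not state strand-specific counting, so reads there cannot be assigned to either. Ly6g6c and Ly6g6f stayed under 1 FPKM in both libraries. Abhd16a, which lies between the Ly6g6 and Ly6g5 genes and is no family member, was at 37.0 FPKM in the KO library and 34.0 FPKM in the WT library, a ratio of 1.09. Within this span, which ends at Ly6g5b, levels above 100 FPKM were measured at the Ly6g5 pair alone. Genes beyond it were not looked at. Ratios above 1 beyond counting error were also measured at Ly6g6d, Abhd16a and Mpig6b, the last with a ratio of 1.72 (1.05 to 2.88). Mpig6b had 47 fragments in the KO library and 27 in the WT library. It averaged 1 FPKM or more through the KO library alone, so its call is a description. Rescaling to TPM, which multiplies each ratio by 0.869, left Ly6g6d above 1 (1.22 to 2.74). The intervals of Abhd16a and Mpig6b then included 1.

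Lypd8 had the largest ratio of any member with a mean past 2 FPKM. The gene (ENSMUSG00000013643, chromosome 11, 58379043 to 58390728, mm10) encodes a GPI-anchored protein known from the colon, where it is released into the mucus and binds flagellated bacteria. It was at 638 FPKM in the KO library and 91.2 FPKM in the WT library, from 11713 and 1658 fragments, a ratio of 7.0 (6.64 to 7.37). Its rank among protein-coding genes was 52 in the KO library and 403 in the WT library, and its share of the family's summed level 22.5% and 6.65%. Without Lypd8 that sum was 2193 FPKM in the KO library and 1279 FPKM in the WT library, a ratio of 1.71.

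Gut epithelium markers stood far below this level. Over 6 genes of enterocytes and colonocytes the sum was 4.02 FPKM in the KO library and 2.88 FPKM in the WT library. Car1 was at 0 in both, and Cdx2, a gut transcription factor, had 2 fragments in the KO library and 0 in the WT library. Vil1, the 1 marker averaging 1 FPKM or more, was at 2.80 FPKM in the KO library and 1.77 FPKM in the WT library. Epididymal epithelium markers were all higher in the KO library beyond counting error (10 of 10, none at 0), against 24.6% of all genes. After rescaling to TPM 9 of 10 were higher, against 7.88% of all. The ratio of the sums of these markers was 1.38 as deposited. Lipocalin gene Lcn9, the highest ratio on that list, was at 2154 FPKM in the KO library and 646 FPKM in the WT library. The part that the amount of epididymal RNA plays in the levels of Lypd8, Ly6g5c and Ly6g5b was not tested.

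The PATE genes, first described in prostate and testis, encode small secreted proteins that bind sperm. On chromosome 9 the 4 members with a Pate symbol lie within 120 kb, and 3 of them stand inside the body of Pate2 on the other strand. Pate1 was at 16.5 FPKM in the KO library and 11.6 FPKM in the WT library, a ratio of 1.42 (1.22 to 1.65) from 429 and 299 fragments, and Pate3 was at 12.6 and 8.29 FPKM in these libraries, a ratio of 1.52 (1.23 to 1.87). Pate2, at 20.2 FPKM in the KO library and 18.9 FPKM in the WT library, had a ratio of 1.07 with an interval that includes 1 (0.990 to 1.16). Hyls1, a gene of another family in the same stretch, was at 4.68 FPKM in the KO library and 4.79 FPKM in the WT library. Pate4, a secretory protein gene of the seminal vesicle, was at 1.96 FPKM in the KO library and 0.263 FPKM in the WT library, from 30 and 4 fragments, a ratio of 7.43 (2.62 to 29.0). Exons of Pate2 overlap those of Pate1, Pate3 and Pate4 over 104, 40 and 217 bases, so a portion of the reads of each cannot be assigned, and for Pate4 this is 20.2% of its exon bases.

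More abundant PATE genes stood next to these under other symbols. Through their Entrez gene numbers or synonyms, 14 further protein-coding genes of the table carry a Ly6, Lypd or Pate name in RefSeq. This search was made after the values were seen. Of the 14, 4 averaged 1 FPKM or more, all on chromosome 9. All 4 were higher in the KO library beyond counting error, against 24.6% of all genes. Under that level, Lypd10 (BC049730), on chromosome 7, went the other way. It had 7 fragments in the KO library and 20 in the WT library, a ratio of 0.347 (0.124 to 0.853). Pate5 (9230110F15Rik in the table) was at 708 FPKM in the KO library and 388 FPKM in the WT library, a ratio of 1.82 (1.77 to 1.88). Pate6 (D730048I06Rik) was at 506 FPKM in the KO library and 371 FPKM in the WT library, a ratio of 1.36 (1.32 to 1.41), with 19.5% of its exon bases overlapping Gm27235. Pate10 (Gm17677) was at 110 FPKM in the KO library and 53.5 FPKM in the WT library, a ratio of 2.05 (1.77 to 2.39). The widest gap was that of Pate13 (9230113P08Rik), at 107 FPKM in the KO library and 19.1 FPKM in the WT library, a ratio of 5.63 (5.13 to 6.18).

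Together these relatives summed to 1433 FPKM in the KO library and 834 FPKM in the WT library. Levels differed along the locus: the 5 PATE genes at its far end (Pate12, Pate11, Pate9, Pate8 and Pate14) were at 0 in the KO library, and among them only Pate12 had fragments in the WT library (4). Pate7 was at 0 in both libraries, but all its exon bases lie within those of another gene, Gm27235. Of the 50-base stretches in their transcripts, 32.4% of Pate5 and 26.7% of Pate13 occur in transcripts of another gene, so those values can include or lack shared reads.

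**Figure D3:**
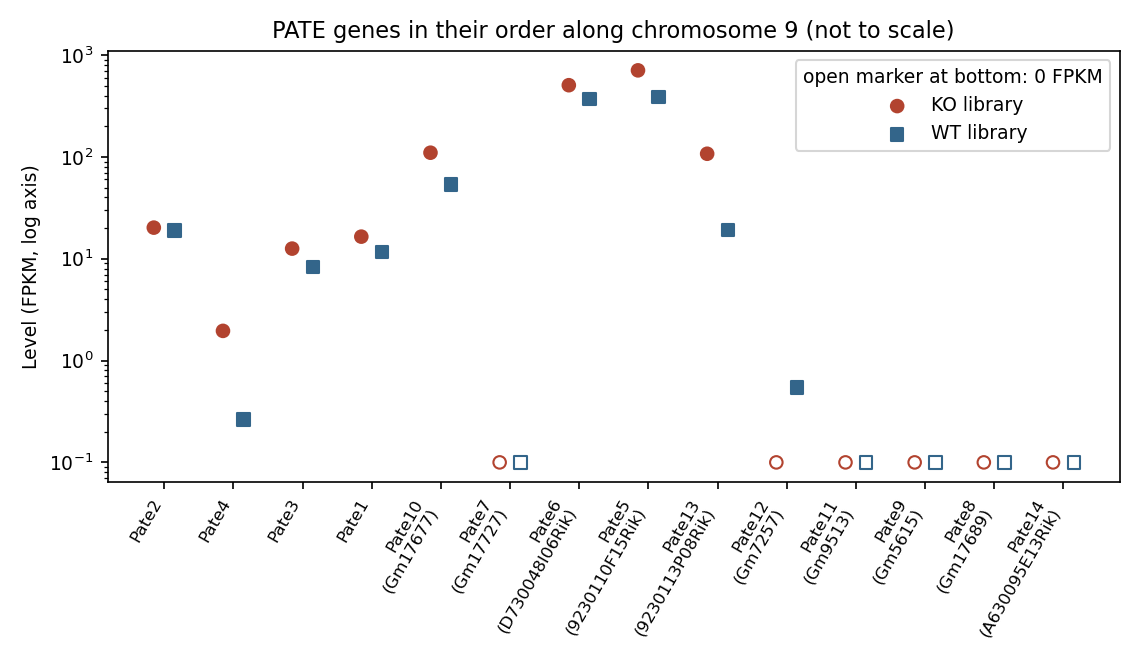
Level in FPKM on a log axis of the PATE genes in their order along chromosome 9, with the table's symbol in brackets where it differs, KO library as circles and WT library as squares, and open markers at the bottom for 0 FPKM. The highest levels in the WT library lie in the middle of the locus, at Pate5 (388 FPKM), Pate6 (371 FPKM) and Pate10 (53.5 FPKM). Pate13, at 19.1 FPKM in the WT library, is close to Pate2 at 18.9 FPKM. Pate7 is at 0, and the far end is at or near 0.

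The chromosome 15 cluster is the largest, with 14 members (11 Ly6 genes, Slurp1, Slurp2 and Lypd2) over 843 kb that begin 1.66 Mb beyond the end of Trappc9. They include the antigens used to sort blood cells and stem cells. Summed, they stood at 344 FPKM in the KO library and 289 FPKM in the WT library, a ratio of 1.19, and 1.03 after rescaling to TPM. Ly6e, an interferon-induced gene whose protein is known to limit the entry of coronaviruses, was the most abundant, at 171 FPKM in the KO library and 163 FPKM in the WT library, from 9229 and 8731 fragments. Its ratio of 1.05 (1.02 to 1.08) lay above 1 as deposited; it was 0.910 (0.884 to 0.937) after rescaling to TPM, a call as lower, and the interval included 1 under the other scalings.

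Ly6a, or Sca-1, a marker of blood and adipose progenitors, was at 78.9 FPKM in the KO library and 67.5 FPKM in the WT library, a ratio of 1.17 (1.08 to 1.27) from 1360 and 1152 fragments. After rescaling to TPM its ratio was 1.02 (0.939 to 1.10), so the call was lost. Of 6 markers of adipose progenitors, 5 were lower and 1 higher in the KO library beyond counting error, against 17.6% and 24.6% of all genes. After rescaling to TPM the counts were 5 and 0, against 48.4% and 7.88% of all. The progenitor markers summed to 243 FPKM in the KO library and 292 FPKM in the WT library. Among them Cd34 was at 27.4 FPKM in the KO library and 52.6 FPKM in the WT library. Ly6c1, known on endothelium and some leukocytes, was at 42.4 FPKM in the KO library and 28.1 FPKM in the WT library, a ratio of 1.51 (1.37 to 1.67) from 1016 and 667 fragments. Of 6 endothelial markers, 4 were higher and 1 lower in the KO library beyond counting error as deposited, against 24.6% and 17.6% of all. After rescaling to TPM these counts were 0 and 1, against 7.88% and 48.4% of all genes. The endothelial markers summed to 44.0 FPKM in the KO library and 38.5 FPKM in the WT library. Of the 50-base stretches of Ly6c1 and Ly6a, 32.8% and 19.0% occur in other genes, chiefly each other, Ly6c2 and Ly6i, so reads may have been split or dropped.

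Members that define myeloid cells were close to absent. Ly6g, the neutrophil antigen, had 1 fragment in the KO library and 0 in the WT library, and Ly6c2, known from inflammatory monocytes, had 9 in each. Neutrophil markers summed over 7 genes to 3.33 FPKM in the KO library and 6.88 FPKM in the WT library, with Elane at 0 in both and Cxcr2 and Camp at 0 in the KO library. Macrophage markers were at 141 FPKM in the KO library and 136 FPKM in the WT library over 6 genes. Of the 5 that averaged 1 FPKM or more, 1 was higher and 1 lower beyond counting error, against 24.6% and 17.6% of all genes. After rescaling to TPM the counts were 0 and 3, against 7.88% and 48.4% of all. T and NK cell markers summed to 1.71 FPKM in the KO library and 1.45 FPKM in the WT library, with no gene at a mean of 1 FPKM.

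Further along the cluster, Ly6f was at 40.8 FPKM in the KO library and 19.5 FPKM in the WT library, from 513 and 243 fragments, a ratio of 2.09 (1.79 to 2.45). Its call as 2-fold higher was lost under each of the 3 other scalings, for example at a log2 ratio of 0.83 after rescaling to TPM. Ly6l, the next member, was at 6.50 FPKM in the KO library and 8.04 FPKM in the WT library, from 40 and 49 fragments, with an interval that includes 1 (0.519 to 1.25). Ly6d, known on early B lineage cells and stratified epithelium, was at 2.91 FPKM in the KO library and 0.854 FPKM in the WT library, a ratio of 3.41 (1.59 to 8.15) that rests on 31 and 9 fragments. Keratinocyte markers summed over 6 genes to 90.4 FPKM in the KO library and 98.3 FPKM in the WT library, with Ivl at 0 in both. Of the 5 that averaged 1 FPKM or more, Krt5 was lower beyond counting error, at 43.1 FPKM in the KO library and 49.1 FPKM in the WT library. Their part in the level of Ly6d was not tested. Between the members lie Lynx1, a brake on nicotinic receptors in the brain, at 2.50 FPKM in the KO library and 2.48 FPKM in the WT library, and BC025446, at 1.06 FPKM in the KO library and 2.53 FPKM in the WT library.

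**Figure D4:**
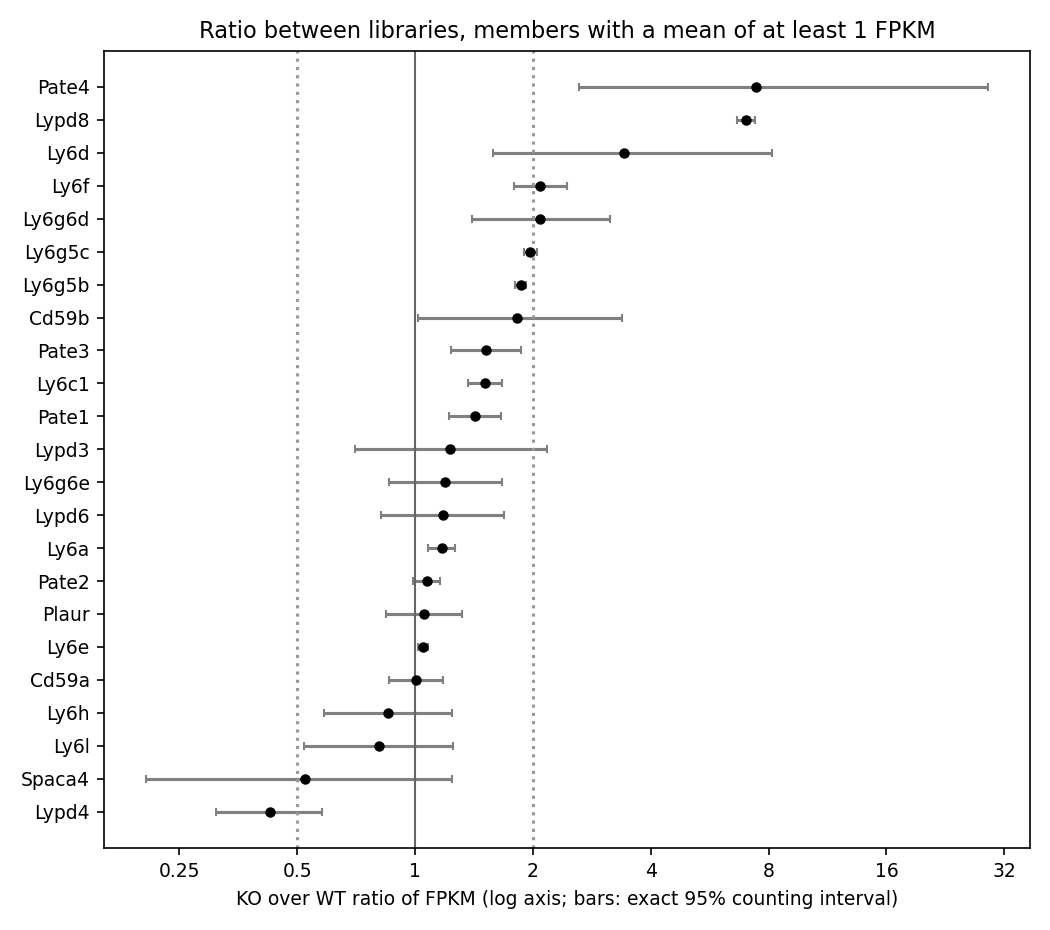
KO over WT ratio of FPKM on a log axis for the 23 members averaging 1 FPKM or more, with exact 95% counting intervals; dotted lines mark 2-fold in either direction. Intervals are narrow for Lypd8 (6.64 to 7.37) and wide for Pate4 (2.62 to 29.0), and Lypd4 (0.310 to 0.578) is the member whose interval lies below 1.

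Lypd4, Spaca4 and Ly6k are grouped here for their part in sperm function, apart from the PATE members above. Lypd4 was lower in the KO library, and for Spaca4 and Ly6k the interval includes 1. Lypd4, a testis gene whose protein is needed for male fertility in mice, was at 3.08 FPKM in the KO library and 7.24 FPKM in the WT library, from 61 and 142 fragments, a ratio of 0.425 (0.310 to 0.578). Spaca4, which mouse sperm need to bind the egg coat, was at 0.890 FPKM in the KO library and 1.70 FPKM in the WT library, with an interval that includes 1 (0.206 to 1.24). Ly6k, which acts on sperm together with Tex101, had 5 fragments in the KO library and 13 in the WT library (interval of the ratio 0.106 to 1.14), and 47.6% of its exon bases overlap Gm17189. Tex101, of the same superfamily but outside the symbol rule, was at 0.633 FPKM in the KO library and 1.79 FPKM in the WT library, a ratio of 0.354 (0.182 to 0.651). Lypd4 and Tex101 lie in the chromosome 7 cluster with Lypd5, Lypd3 and Plaur, whose 4 members summed to 8.86 FPKM in the KO library and 12.5 FPKM in the WT library. Outside the symbol rule, 12 coding genes there averaged 1 FPKM or more, Tex101 among them through the WT library alone. In the KO library 2 of these were higher and 4 lower beyond counting error, against 24.6% and 17.6% of all genes. Ceacam10 was at 169 FPKM in the KO library and 65.9 FPKM in the WT library, and Kcnn4 at 1.93 FPKM in the KO library and 4.80 FPKM in the WT library.

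Other genes that act in fertilisation differed in both directions. Of 10 such partners, 7 averaged 1 FPKM or more. Beyond counting error, 4 of these were lower and 1 higher in the KO library, against 17.6% and 24.6% of all genes. Adam2 was at 2.05 FPKM in the KO library and 4.72 FPKM in the WT library, and Adam3, whose protein Ly6k and Tex101 help to the sperm surface, at 4.11 and 6.79 FPKM in these libraries. Clgn was at 2.66 FPKM in the KO library and 4.72 FPKM in the WT library, and Spaca1 at 0.657 FPKM in the KO library and 1.37 FPKM in the WT library. Spaca1 averaged 1 FPKM or more through the WT library alone, so the count of 4 lower is a description. Ace, the member that was higher, is also made outside the testis and stood at 169 FPKM in the KO library and 108 FPKM in the WT library. Markers of late spermatids were higher in the KO library, 6 of 6 at least 2-fold, against 0.948% of all genes, and none at 0. Their sums were 172 FPKM in the KO library and 35.4 FPKM in the WT library. What part the number or stage of germ cells plays in the values of Lypd4 and Spaca4 was not tested.

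Plaur and Cd59a, a receptor and a complement inhibitor, had ratios near 1. Plaur, the receptor that holds the protease urokinase at the cell surface, was at 4.43 FPKM in the KO library and 4.21 FPKM in the WT library, a ratio of 1.05 (0.842 to 1.32). Of 9 genes of the urokinase system, 7 averaged 1 FPKM or more. Of these, 1 was higher and 1 lower in the KO library beyond counting error, against 24.6% and 17.6% of all genes. After rescaling to TPM the counts were 1 and 5, against 7.88% and 48.4% of all. Plau, which encodes urokinase, was at 26.0 FPKM in the KO library and 27.0 FPKM in the WT library. Lrp1, the one that was lower, was at 25.8 FPKM in the KO library and 29.6 FPKM in the WT library, and Vtn, the one that was higher, at 2.45 FPKM in the KO library and 1.18 FPKM in the WT library.

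Cd59a, which keeps the membrane attack complex of complement from forming on the body's own cells, was at 12.4 FPKM in the KO library and 12.3 FPKM in the WT library, a ratio of 1.00 (0.856 to 1.18) that turned below 1 under every other scaling. Its neighbour Cd59b was at 1.88 FPKM in the KO library and 1.03 FPKM in the WT library, a ratio of 1.82 (1.02 to 3.38) from 35 and 19 fragments, and 20.1% of its 50-base stretches occur in other genes. This call was lost under each of the 3 other scalings, for example at 1.59 (0.882 to 2.93) after rescaling to TPM. Cd59a was 6.56 times Cd59b in the KO library and 11.9 times in the WT library. Of 14 complement genes and membrane regulators, 8 averaged 1 FPKM or more. Of these, 5 were higher and 2 lower in the KO library beyond counting error, against 24.6% and 17.6% of all genes. After rescaling to TPM the counts were 2 and 2, against 7.88% and 48.4% of all. The complex component C7 was at 53.3 FPKM in the KO library and 19.3 FPKM in the WT library, a ratio of 2.77 (2.54 to 3.01), while C3 was at 107 FPKM in the KO library and 144 FPKM in the WT library. C6, C8a, C8b and C9, which build the complex with C7, each had at most 10 fragments in either library, and C8g, a further component, was at 4.73 FPKM in the KO library and 4.26 FPKM in the WT library.

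Modulators of nicotinic receptors were at the low end of the family. Lypd6, also known to act in Wnt signalling, was at 1.31 FPKM in the KO library and 1.12 FPKM in the WT library, and Ly6h at 0.926 FPKM in the KO library and 1.09 FPKM in the WT library. Both intervals include 1, as do those of Lypd6b (26 and 20 fragments in the KO and WT libraries) and Lypd1 (13 and 11). Slurp1, a skin protein, had 1 fragment in the KO library and 0 in the WT library, and Slurp2 had none in either, a count that leaves room for 0.385 FPKM in the KO library and 0.389 FPKM in the WT library. Of 16 receptor subunits, 14 averaged under 1 FPKM, and 6 in the KO library and 8 in the WT library were at 0. Chrna2 was at 15.2 FPKM in the KO library and 17.7 FPKM in the WT library, and Chrnb1 at 4.50 and 4.24 FPKM in these libraries.

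The remaining members had few fragments. Lypd3, known from stratified epithelium, was at 1.31 FPKM in the KO library and 1.07 FPKM in the WT library, with an interval that includes 1, and 13.6% of its exon bases overlap the antisense gene Gm26550. Lypd2 had 4 fragments in the KO library and 1 in the WT library, Lypd5 had 1 and 0, and Ly6i had 1 in each. No fold is given for these. Mesothelial markers, for a cell layer that covers fat pads, had 4 of 5 lower and 1 higher in the KO library beyond counting error. The shares of all genes were 17.6% and 24.6%. After rescaling to TPM the counts were 5 and 0, against 48.4% and 7.88% of all. These markers had sums of 131 FPKM in the KO library and 143 FPKM in the WT library. Most of both sums came from Krt19, the one that was higher as deposited, at 104 FPKM in the KO library and 95.1 FPKM in the WT library.

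Genes that build and attach the GPI anchor, on which many of these proteins depend, lay mostly within counting error as deposited. Of 27 such genes, 26 were in the table and all 26 averaged 1 FPKM or more. Of these, 2 were higher and 1 lower in the KO library beyond counting error, against 24.6% and 17.6% of all genes. The median log2 ratio was 0.04 against 0.02 over all genes. After rescaling to TPM, which shifts all genes down, 1 was higher and 11 lower. Pigo had the largest ratio, at 11.3 FPKM in the KO library and 7.80 FPKM in the WT library, a ratio of 1.45 (1.29 to 1.63), while Piga, the first enzyme subunit of the pathway, was at 8.67 and 9.58 FPKM in these libraries. Gpihbp1, a GPI-anchored relative that carries lipoprotein lipase to the capillary wall, was at 7.25 FPKM in the KO library and 4.42 FPKM in the WT library, a ratio of 1.64 (1.34 to 2.01). Among 8 such superfamily genes outside the symbol rule, 3 averaged 1 FPKM or more, of which Gpihbp1 was higher, Tex101 lower and Lynx1 neither. Tex101 reached a mean of 1 FPKM through the WT library alone.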

How the data were processed

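RNA sequencing libraries of 1 KO and 1 WT sample were read from a single deposited table of FPKM values with gene length, position and biotype. Alignment software (HISAT2 2.0.5) and genome builds (mm10, hg38) are listed in the submitters' processing notes; the counting program was not given in the sources used here. Multiplying the deposited FPKM by gene length gave whole numbers of a fixed unit in each library, within 0.01 of a fragment, for 100% of values above 0, and so the fragments and the intervals. The step ratio of KO over WT was 0.990, so the authors' FPKM already carry a scaling between libraries. Differences are log2((KO + 1)/(WT + 1)), which understates those of low genes. Genes averaging 1 FPKM or more were called at 2-fold or by the 95% interval; intervals treat fragments as independent and reads carried no stated molecular identifiers. Members within 1 Mb formed a cluster. Members and gene lists were chosen with earlier results of these data known. Named were the 12 highest members, those past 2-fold, the highest of each cluster, some of the genes inside clusters, and up to 4 genes of each list. Other members and list genes were added after their values were seen. A gene of the urokinase list is not reported here and was left out of its counts. All 35 members had the coordinates of GENCODE M21. Overlaps and shared 50-base stretches were computed on that annotation. Ratios and intervals were run on simulated fragments drawn with counting error alone. Such a run checks the calculation and cannot show how the intervals do with the spread between mice. Python 3.11.15 with numpy 2.4.6, pandas 2.3.3, scipy 1.17.1 and matplotlib 3.10.9 was used.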

Additional observations from a re-analysis of the deposited data

Results flagged for a closer look

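Genes not annotated as protein-coding that lie inside a member cluster and averaged 10 FPKM or more were noted as signal outside the measurement. There were 3, all unprocessed pseudogenes between Ly6l and Ly6h on chromosome 15, annotated next to each other. Gm34531 stood at 85.3 FPKM in the KO library and 79.3 FPKM in the WT library, from 504 and 464 fragments. Gm34593 stood at 68.7 FPKM in the KO library and 66.9 FPKM in the WT library. Gm34646 stood at 15 FPKM in the KO library and 17.6 FPKM in the WT library. Each ratio had a counting interval that includes 1, as did that of their coding neighbour Ly6l, which shares 2.10% of its 50-base stretches with Gm34593.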

How the results depend on the processing

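No paired analysis was possible because each genotype has 1 library, and for the same reason no library could be left out. The count of members at least 2-fold higher (4, against 0.948% of all genes) was 1 with a pseudocount of 5 FPKM, against 0.504%. It was 2 after rescaling to TPM, against 0.741%, and 2 with a mean of at least 5 FPKM, against 1.03%. At 1.5-fold it was 7, against 2.79%. Lypd8 was at a log2 ratio of 2.59 to 2.80 under the pseudocounts and scalings tried. The count at least 2-fold lower (1, against 0.29% of all genes) was 0 with a pseudocount of 5 FPKM, against 0.0153%. Members lower beyond counting error (1) numbered 2 after rescaling to TPM, where 48.4% of all genes were lower. The members' median log2 ratio (0.22) was 0.051 after rescaling to TPM and 0.47 with a mean of at least 5 FPKM. Rescaling to TPM, total-count scaling and that scaling without the 100 most abundant genes moved the summed ratio of the family (2.07) to 1.80, 1.93 and 1.98, that of chromosome 17 (1.92) to 1.67, 1.80 and 1.84, and that of chromosome 15 (1.19) to 1.03, 1.11 and 1.14. That of the PATE members on chromosome 9 (1.31) was 1.14 after rescaling to TPM and 1.23 with total-count scaling. The summed ratio of the cluster starting at Lypd5 on chromosome 7 was 0.708, and 1.09 when members were linked over shorter gaps, which leaves Lypd4 out of it. The counts of the gene lists under TPM were added after seeing the data. Values for members under 5 FPKM rest on few fragments and are limited by depth.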
